A study of Mus musculus with 16 samples.

Results

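The collagen genes of the mouse spleen were followed as a readout of its connective tissue. Members were taken by name from the gene tables, as every symbol that begins with Col, a number, the letter a and another number. For each symbol 1 transcript was kept, the one with the highest mean fragment count. The rule gave 45 symbols of the 55291 in the tables. Of these, 44 encode collagen chains, while Col4a3bp encodes a ceramide transfer protein and shares only its name with them. After a filter on low counts, 27 of the 44 chains were tested and 17 were not, the largest mean count among the untested being 5.19 fragments (Col4a5). Each of the 44 had a count in at least 1 library. Of the 27 tested chains, 7 had fewer than 10 counts in every day 0 library.

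Total RNA depleted of ribosomal RNA came from spleens of male C57BL/6 mice, in 8 groups of 2 libraries, each library pooling 2 spleens of 2 mice. The groups were PKR KO and WT mice at days 0, 1, 2 and 5 of daily imiquimod (IMQ) cream, 62.5 mg at 5% on shaved back skin, with day 0 labelled as 0 days of treatment. IMQ is a Toll-like receptor agonist that gives mice a skin inflammation used as a model of psoriasis, and PKR, encoded by Eif2ak2, is a kinase activated by double-stranded RNA. The labels give neither the age of the mice nor the allele behind the KO, and p-values measure the spread between these pools. Spleens were passed through a 70-µm mesh and red cells were lysed; no enzyme digestion is named. In such bulk libraries fewer cells of a type and less RNA per cell cannot be told apart.

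Collagens are extracellular proteins built as triple helices of alpha chains. Fibrillar chains form the fibers of connective tissue, and in the spleen type III fibers make up much of the reticular meshwork on which lymphocytes move. Type IV chains build the sheet of basement membranes, type VI chains make beaded filaments, type VII chains make anchoring fibrils, and FACIT chains sit on the surface of fibrils. Fibroblastic, perivascular and endothelial cells are their main known sources.

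The libraries held 35026754 to 67333830 fragments. The TMM scaling factors of the WT day 1 libraries, 1.199 and 1.187, stood above the 0.9039 to 1.077 of the others. B cell markers, which define the main lymphocytes of a spleen, summed to 2607 and 2629 CPM in KO and 2757 and 2454 CPM in WT spleens at day 0, where CPM is the fragment count scaled by library total and TMM factor. Eif2ak2 had 12.2 and 14.9 CPM in KO against 24.7 and 25.8 CPM in WT spleens at day 0, and 43.3 and 36.8 CPM against 101 and 96.7 CPM at day 1. At day 2 it had 48.0 and 22.2 CPM in KO against 32.9 and 43.3 CPM in WT spleens, and at day 5 15.9 and 18.9 CPM against 29.3 and 30.1 CPM. The library labelled KO_D2 replicate 1 was thus above both WT day 2 libraries, while on the other days both KO libraries were below both WT libraries. The KO minus WT log2 difference averaged over days was -0.77 (edgeR adjusted p = 0.265). It lay between -0.94 and -0.66 with 1 library left out at a time, and whether it passed the threshold depended on the fit used. Whether the counted transcript lies in the deleted part was not tested.

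Collagen transcripts were rare in these suspensions. In FPKM, which divides by transcript length, the mean level of the 27 tested chains over the 16 libraries ran between 0.0101 for Col22a1 and 0.939 for Col11a2, whereas the median of all tested genes was 2.67 FPKM. Col11a2, a fibrillar chain known from cartilage, had the highest mean FPKM at day 0, 0.981 ± 0.36 in KO and 1.38 ± 0.19 in WT spleens (SD, n = 2 each). At day 2 the highest mean was that of Col4a1 of the basement membrane, 2.31 ± 0.033 FPKM in KO and 1.29 ± 0.49 FPKM in WT spleens, where Col11a2 had 1.24 ± 0.092 FPKM, within the spread of Col4a1. At day 5 it was that of Col5a1, a minor fibrillar chain, with 1.42 ± 0.27 FPKM in KO and 1.15 ± 0.27 FPKM in WT spleens. Col4a3bp averaged 7.001 FPKM and changed at day 1 by -0.73 in KO and -0.59 in WT spleens on the log2 scale (adjusted p = 7.22e-05 and 0.0005).

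**Figure D1:**
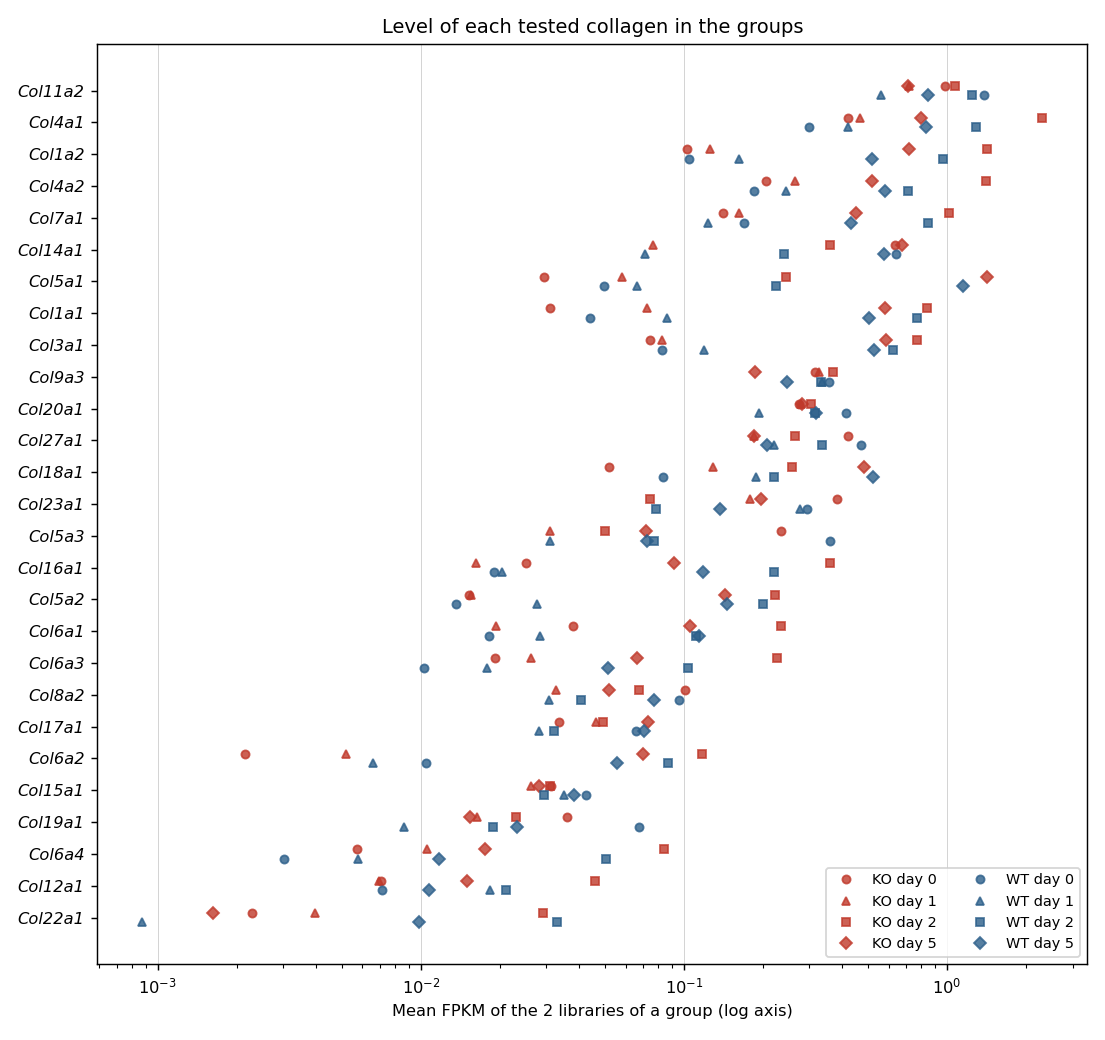
Mean FPKM of the 2 libraries of each group (log axis) for the 27 tested collagens, ordered by their mean over all libraries; KO in red lies above WT in blue, and the shape of a point gives the day. The day 2 squares of Col1a1, Col1a2 and Col3a1 lie right of their day 0 circles, and those of Col5a3, Col14a1 and Col23a1 lie left of them; a group with a mean of 0 (Col22a1, WT day 0) is not drawn.

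The bases before the transcription start are shown for chains that stand for the courses described here: Col3a1 and Col7a1, highest at day 2, Col5a1, highest at day 5, and Col5a3 and Col23a1, highest at day 0. Each sequence is the 250 bases before the RefSeq start on GRCm38, read 5′ to 3′ on the strand of the gene. Capitals mark 3 motifs on either strand, which do not share bases here. The CCAAT box reads ATTGG on the opposite strand, the GC box was searched as GGGCGG and on the opposite strand as CCGCCC, and the TATA box was searched as TATAAA with its reverse complement. Col3a1 lies at chr1:45311288-45311537 (plus strand), Col7a1 at chr9:108953336-108953585 (plus), Col5a1 at chr2:27886175-27886424 (plus), Col5a3 at chr9:20815068-20815317 (minus) and Col23a1 at chr11:51289670-51289919 (plus).
Col3a1: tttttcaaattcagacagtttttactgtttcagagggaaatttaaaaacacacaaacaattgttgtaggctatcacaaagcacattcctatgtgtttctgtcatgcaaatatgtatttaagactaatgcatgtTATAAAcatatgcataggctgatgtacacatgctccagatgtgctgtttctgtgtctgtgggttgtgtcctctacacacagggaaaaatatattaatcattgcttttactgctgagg
Col7a1: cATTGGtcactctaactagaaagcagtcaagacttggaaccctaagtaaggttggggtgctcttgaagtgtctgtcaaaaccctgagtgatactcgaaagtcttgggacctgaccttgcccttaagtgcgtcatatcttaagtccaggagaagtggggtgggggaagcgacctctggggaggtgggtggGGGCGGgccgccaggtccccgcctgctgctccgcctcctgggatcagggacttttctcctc
Col5a1: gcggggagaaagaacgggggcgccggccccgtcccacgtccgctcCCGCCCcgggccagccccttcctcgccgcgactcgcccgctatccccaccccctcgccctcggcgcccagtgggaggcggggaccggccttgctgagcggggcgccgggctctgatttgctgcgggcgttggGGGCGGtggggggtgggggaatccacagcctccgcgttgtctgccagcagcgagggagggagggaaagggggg
Col5a3: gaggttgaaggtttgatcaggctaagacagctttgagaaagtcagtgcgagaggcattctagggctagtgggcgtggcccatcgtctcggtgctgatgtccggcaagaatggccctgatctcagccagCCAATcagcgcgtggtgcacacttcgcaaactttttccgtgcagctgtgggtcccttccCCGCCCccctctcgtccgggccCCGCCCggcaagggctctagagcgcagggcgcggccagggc
Col23a1: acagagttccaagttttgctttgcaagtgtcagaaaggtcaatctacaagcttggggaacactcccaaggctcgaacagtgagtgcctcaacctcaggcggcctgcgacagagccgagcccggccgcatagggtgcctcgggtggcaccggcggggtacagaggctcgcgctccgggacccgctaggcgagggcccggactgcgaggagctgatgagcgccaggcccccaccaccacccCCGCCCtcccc

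The Col3a1 window has 35.2% G and C and held TATAAA 117 bases before the start. The Col5a1 window has 76.4% G and C and held the GC box 205 and 73 bases before its start. Col5a3, which moved the opposite way to Col5a1, held CCAAT 122 bases and the GC box 63 and 41 bases before its start. RefSeq entries matched 21 of the 27 tested chains, in 23 windows. Of the 14 windows of chains that rose at day 2, 7 held CCAAT, 9 held the GC box and 1 held TATAAA, and of the 9 other windows 2, 5 and 2 did. Over all 32851 windows of this length the shares were 33.8%, 32.7% and 12.4%. These matches are letters in a window, and binding was not measured. Col4a1 (minus strand) and Col4a2 (plus strand) lie head to head on chromosome 8. Their RefSeq starts, 11312826 and 11312805, are 21 bases apart and placed so that the first bases of the transcripts overlap.

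At day 1 no collagen was called higher than at day 0, although Col18a1 in KO spleens was near the threshold and was called under some settings. At day 2, 16 chains rose and 3 fell, and they were the same genes in KO and WT spleens, with type I, III, IV, V, VI and VII chains among those that rose. The WT call of Col12a1 was near the threshold. How far KO and WT calls overlap over all genes was not counted, so this overlap is not shown to be particular to collagens. At day 5, 13 of the 16 were above day 0 in KO and 14 in WT spleens, and Col5a1 and Col18a1 then had their highest means. The chain called in WT spleens only was Col22a1, with 6 and 1 fragments at day 5 and 0 in both WT day 0 libraries. Its WT day 5 mean was 1.58 times a floor of 3 counts per library (0.0560 CPM). As WT_D5 replicate 2, at 0.0244 CPM, lay below that floor, no least rise is given. The largest called falls were those of Col14a1 and Col5a3 at day 1 and of Col23a1 and Col5a3 at day 2 in both genotypes.

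These calls come from an edgeR quasi-likelihood fit over 18789 genes, at a Benjamini-Hochberg adjusted p under 0.05. At day 1, 0 chains were called higher and 5 lower in KO spleens, where 22.1% of all genes were called higher and 19.5% lower (41.6% in all). In WT spleens at day 1, 0 chains were called higher and 8 lower, where 23.3% of all genes were called higher and 21.4% lower (44.6% in all). At day 2, 16 chains were called higher and 3 lower in KO spleens, where 26.2% of all genes were called higher and 23% lower (49.3% in all). For WT spleens at day 2, 16 chains were called higher and 3 lower, where 23.9% of all genes were called higher and 21.3% lower (45.2% in all). At day 5, 13 chains were called higher and 3 lower in KO spleens, where 24.2% of all genes were called higher and 20.3% lower (44.5% in all). For WT spleens at day 5, 14 chains were called higher and 4 lower, where 22.4% of all genes were called higher and 17% lower (39.4% in all). A chain that passed the filter through its day 2 counts had to differ, so these counts describe the tested chains and not the family. The 7 chains with fewer than 10 counts in every day 0 library were all among the 16 called higher at day 2. They were Col5a2, Col6a1, Col6a2, Col6a4, Col12a1, Col16a1 and Col22a1. The median log2 change of the tested chains at day 2 was 2.67 in KO and 2.04 in WT spleens, against 0.01 and -0.02 over all genes. At day 5 it was 1.16 in KO and 1.48 in WT spleens. With Col22a1, which had no count in either WT day 0 library, set to its value against the floor, the WT median was 1.38.

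**Figure D2:**
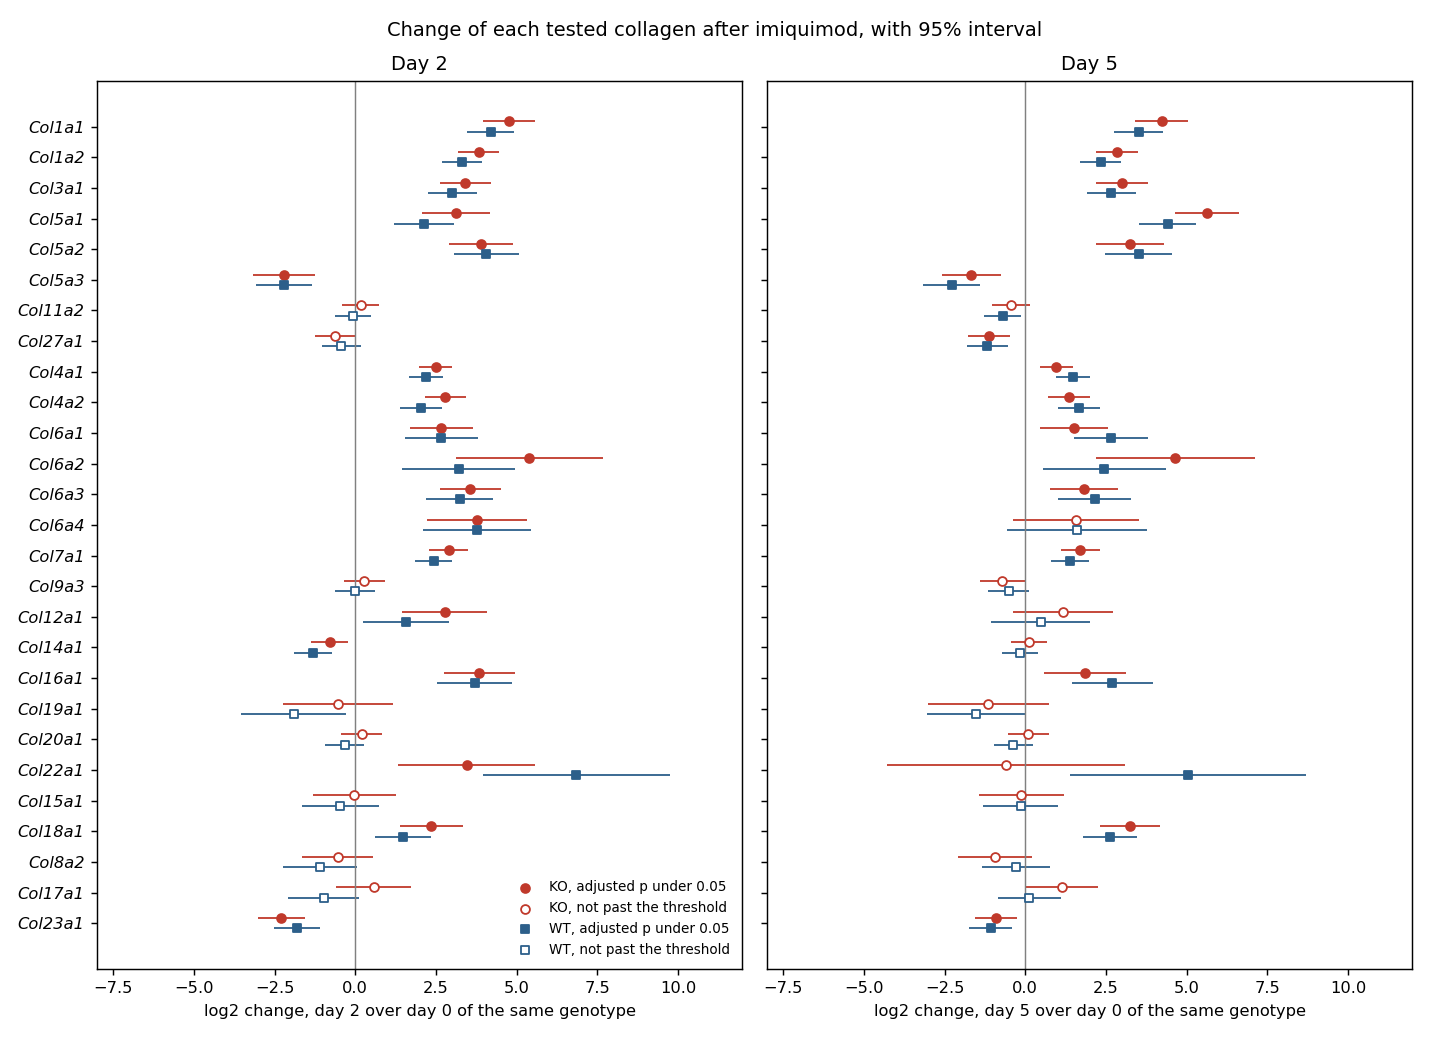
Log2 change over day 0 of the same genotype for the 27 tested collagens at day 2 and day 5, with 95% intervals from the edgeR fit; KO stands above WT, and filled symbols have an adjusted p under 0.05. At day 2, 16 chains lie right of 0 with filled symbols in both genotypes, and at day 5 the Col5a1 value in KO is 5.64.

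The genes of type I and type III collagen, the main fibers of connective tissue, rose by day 2 and stayed above day 0 at day 5. Col1a1 (chr11:94936224-94953042), the alpha1 chain of type I, had 0.227 and 0.151 CPM at day 0, 0.550 and 0.285 at day 1, 4.59 and 6.00 at day 2 and 3.15 and 4.14 at day 5 in KO spleens. In WT spleens it had 0.263 and 0.262 CPM at day 0, 0.389 and 0.466 at day 1, 4.05 and 5.63 at day 2 and 3.73 and 2.32 at day 5. All day 2 and day 5 libraries of both genotypes were above all those of days 0 and 1. Its day 2 change was 4.77 in KO spleens (27.2-fold, SE 0.379, adjusted p = 1.26e-08) and 4.20 in WT spleens (18.3-fold, SE 0.350, adjusted p = 2.83e-08).

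Col1a2 (chr6:4505493-4541544), the alpha2 chain that pairs with it in type I, had 0.579 and 0.553 CPM at day 0, 0.527 and 0.753 at day 1, 7.26 and 8.91 at day 2 and 3.57 and 4.60 at day 5 in KO spleens. The WT libraries held 0.658 and 0.462 CPM at day 0, 0.891 and 0.557 at day 1, 5.11 and 5.82 at day 2 and 3.37 and 2.22 at day 5. Days 2 and 5 did not overlap days 0 and 1, and at day 2 both KO libraries were above both WT libraries. The day 2 change of Col1a2 was 3.83 in KO spleens (14.2-fold, SE 0.301, adjusted p = 1.08e-08) and 3.31 in WT spleens (9.90-fold, SE 0.295, adjusted p = 6.15e-08).

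Col3a1 (chr1:45311538-45349706), the chain of type III and of reticular fibers, had 0.455 and 0.402 CPM at day 0, 0.239 and 0.631 at day 1, 3.39 and 5.81 at day 2 and 2.92 and 4.02 at day 5 in KO spleens. In WT libraries there were 0.461 and 0.462 CPM at day 0, 0.518 and 0.596 at day 1, 2.93 and 4.45 at day 2 and 3.32 and 2.59 at day 5. Again no day 2 or day 5 library overlapped those of days 0 and 1, while days 2 and 5 overlapped each other. Col3a1 changed at day 2 by 3.41 in KO spleens (10.7-fold, SE 0.376, adjusted p = 7.18e-07) and 3.00 in WT spleens (8.02-fold, SE 0.363, adjusted p = 2.54e-06).

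Summed over Col1a1, Col1a2 and Col3a1, the KO level was 1.18 ± 0.109 CPM at day 0, 1.49 ± 0.2495 at day 1, 18.0 ± 3.88 at day 2 and 11.2 ± 2.21 at day 5 (SD, n = 2 each). In WT spleens it was 1.28 ± 0.139, 1.71 ± 0.126, 13.997 ± 2.69 and 8.77 ± 2.33 CPM. At day 2 this was 15.2 times day 0 in KO and 10.9 times in WT spleens. Per length, the ratio of Col1a1 to Col1a2 was 0.804 ± 0.0111 in KO and 0.969 ± 0.0391 in WT spleens at day 5, against 0.3001 ± 0.0766 in KO and 0.436 ± 0.106 in WT spleens at day 0. The alpha1 chain thus stood higher against its partner at day 5 than at day 0, a difference larger than the SDs that was not tested.

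**Figure D3:**
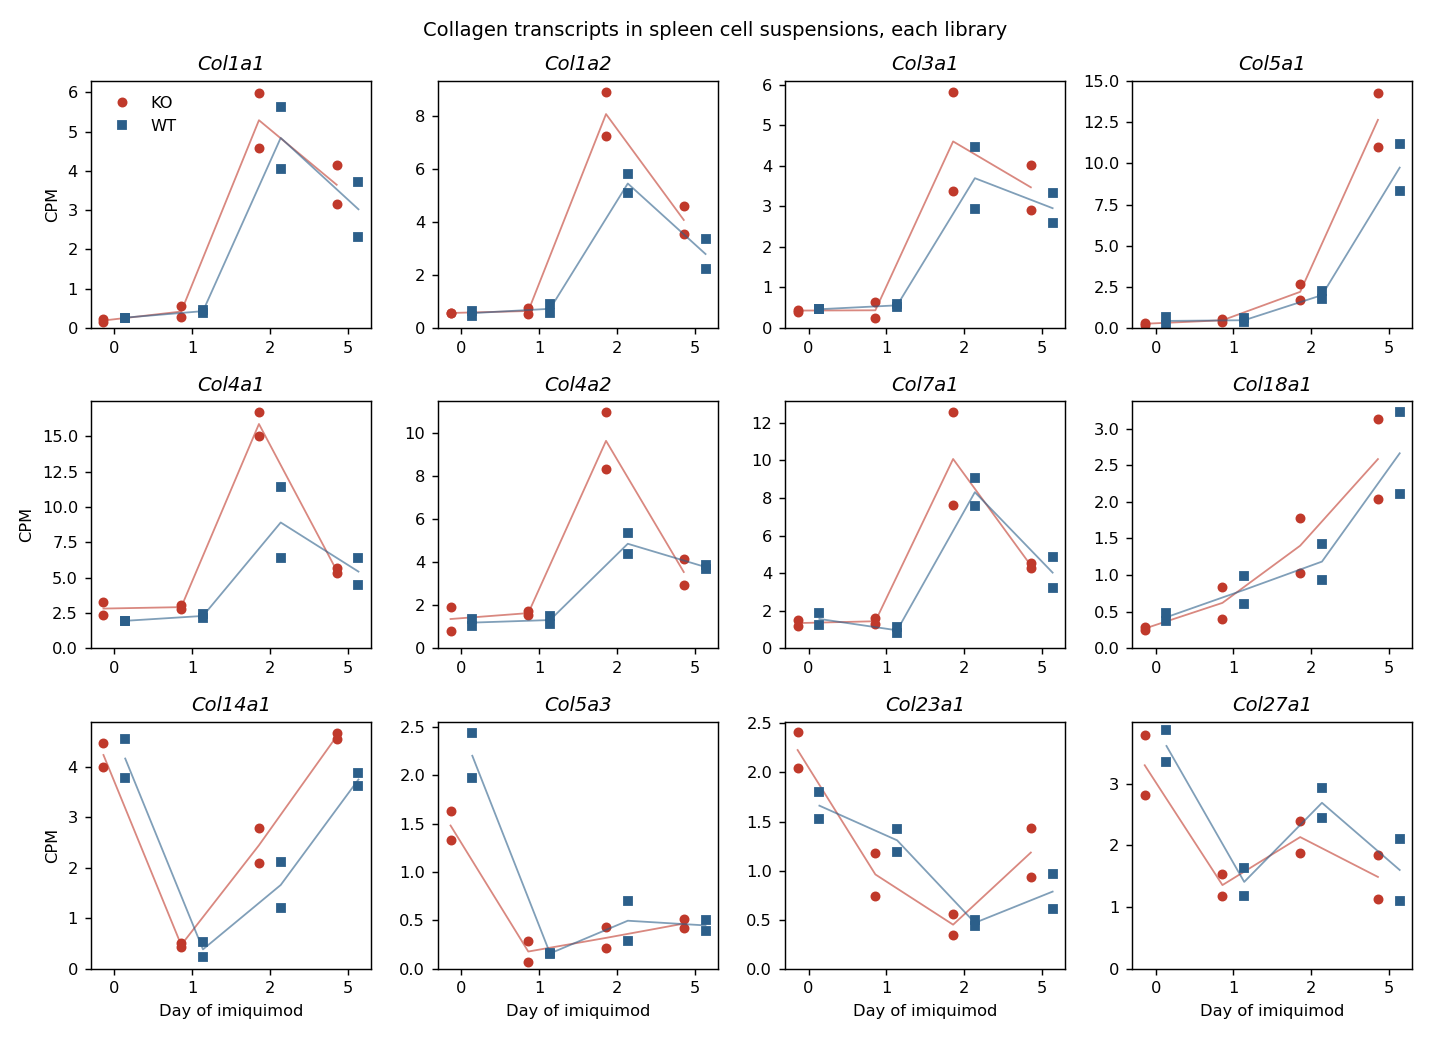
CPM in every library (KO circles left, WT squares right, lines joining the group means) of 12 collagens at days 0, 1, 2 and 5. Type I, III, IV and VII genes are highest at day 2, Col5a1 and Col18a1 are highest at day 5, and Col5a3, Col23a1 and Col27a1 are highest at day 0.

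The chains of type V, a minor fibrillar collagen that helps to start fibrils and set their width, parted from each other. Col5a1 (chr2:27886425-28039514) had 0.207 and 0.302 CPM at day 0, 0.359 and 0.570 at day 1, 1.71 and 2.68 at day 2 and 14.3 and 10.99 at day 5 in KO spleens. Its WT values were 0.176 and 0.678 CPM at day 0, 0.599 and 0.337 at day 1, 1.73 and 2.26 at day 2 and 8.31 and 11.2 at day 5. Every day 5 library was above every day 2 library, and the day 2 libraries were above all earlier ones. The day 5 change of Col5a1 was 5.64 in KO spleens (50.01-fold, SE 0.464, adjusted p = 1.77e-07) and 4.42 in WT spleens (21.3-fold, SE 0.414, adjusted p = 1.02e-06). Without WT_D0 replicate 2, the higher of the WT day 0 libraries, the WT change was 5.80 at day 5 and 3.51 at day 2, against 2.14 at day 2 with it.

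Col5a1 made up 21.4% of the summed collagen CPM in KO and 18.5% in WT spleens at day 5, against 0.911% in KO and 1.37% in WT spleens at day 0. Col5a2, its partner in the common form of type V, rose at day 2 by 3.90 in KO and 4.07 in WT spleens (adjusted p = 2.62e-06 and 1.75e-06), with a mean of 27.1 fragments a library. Its mean was highest at day 2 in both genotypes.

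Col5a3 (chr9:20770050-20815067), the third chain of type V, fell. It had 1.63 and 1.33 CPM at day 0, 0.0718 and 0.285 at day 1, 0.427 and 0.212 at day 2 and 0.417 and 0.518 at day 5 in KO spleens. WT spleens had 2.44 and 1.97 CPM at day 0, 0.162 and 0.155 at day 1, 0.704 and 0.290 at day 2 and 0.507 and 0.390 at day 5. All treated libraries were below all day 0 libraries. The day 1 change of Col5a3 was -2.99 in KO spleens (SE 0.476, adjusted p = 7.19e-05) and -3.77 in WT spleens (SE 0.444, adjusted p = 3.07e-06). It rests on few fragments, since the KO day 1 value was -2.37 without KO_D1 replicate 1 and -4.32 without KO_D1 replicate 2. At day 2 the changes were -2.22 in KO and -2.20 in WT spleens, the WT value being -2.96 without WT_D2 replicate 1. The KO day 5 call (-1.67, adjusted p = 0.00414) was lost without KO_D5 replicate 1 (-1.52, adjusted p = 0.051).

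The other tested fibrillar chains, Col11a2 and Col27a1, were called higher in no comparison with day 0. Col11a2 (chr17:34039437-34066685) had 7.69 and 4.55 CPM at day 0, 5.24 and 3.18 at day 1, 5.13 and 8.70 at day 2 and 4.48 and 4.63 at day 5 in KO spleens. WT libraries held 8.93 and 7.85 CPM at day 0, 3.05 and 2.67 at day 1, 8.25 and 7.66 at day 2 and 5.55 and 4.76 at day 5. The WT day 1 libraries were the lowest of all, and the KO libraries of days 0 and 1 overlapped. Its day 1 change was -1.55 in WT spleens (SE 0.273, adjusted p = 0.000274), and the KO value of -0.55 was not called (adjusted p = 0.12), though with no filter on low counts it was -0.58 and called (adjusted p = 0.0162). The WT day 5 change of -0.70 had an adjusted p of 0.0489, and the call was lost when 1 of 7 libraries was left out (either library of KO_D5, WT_D0 or WT_D5, or WT_D2 replicate 2), with adjusted p of 0.0641 to 0.243.

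Col27a1 (chr4:63215435-63334991), a chain of thin fibrils in cartilage, had 3.78 and 2.81 CPM at day 0, 1.53 and 1.18 at day 1, 1.88 and 2.39 at day 2 and 1.85 and 1.13 at day 5 in KO spleens. WT values were 3.86 and 3.36 CPM at day 0, 1.64 and 1.18 at day 1, 2.93 and 2.44 at day 2 and 2.10 and 1.10 at day 5. Day 1 did not overlap day 0 in either genotype, and neither did day 5. The day 1 change of Col27a1 was -1.29 in KO spleens (SE 0.306, adjusted p = 0.0025) and -1.36 in WT spleens (SE 0.293, adjusted p = 0.00109). The day 5 changes of -1.14 in KO and -1.17 in WT spleens were called (adjusted p = 0.00596 and 0.00486). The KO call was lost without KO_D0 replicate 1 (-0.90, adjusted p = 0.0708) or KO_D5 replicate 2 (-0.83, adjusted p = 0.0861), and the WT call without WT_D5 replicate 2 (-0.78, adjusted p = 0.108).

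The chains of the basement membrane network, Col4a1 and Col4a2, rose at day 2 and were still above day 0 at day 5. Col4a1 (chr8:11198431-11312689) had 3.26 and 2.36 CPM at day 0, 2.78 and 3.05 at day 1, 15.01 and 16.7 at day 2 and 5.70 and 5.30 at day 5 in KO spleens. For WT spleens the values were 1.95 and 1.94 CPM at day 0, 2.45 and 2.14 at day 1, 6.37 and 11.4 at day 2 and 4.49 and 6.37 at day 5. Both KO day 2 libraries were above both WT day 2 libraries, and day 2 did not overlap day 0. The day 2 change of Col4a1 was 2.49 in KO spleens (5.61-fold, SE 0.245, adjusted p = 1.86e-07) and 2.20 in WT spleens (4.60-fold, SE 0.249, adjusted p = 1.17e-06). At day 5 it was 0.96 in KO spleens (adjusted p = 0.00412), a call lost without KO_D0 replicate 2 (0.77, adjusted p = 0.0572), and 1.48 in WT spleens (adjusted p = 0.000149).

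Col4a2 (chr8:11312805-11449287), which joins Col4a1 in the common type IV helix, had 1.92 and 0.804 CPM at day 0, 1.75 and 1.53 at day 1, 8.32 and 10.96 at day 2 and 4.17 and 2.92 at day 5 in KO spleens. The WT spleens had 1.36 and 1.03 CPM at day 0, 1.49 and 1.1403 at day 1, 4.37 and 5.34 at day 2 and 3.67 and 3.88 at day 5. Its day 2 libraries were above those of days 0 and 1, and those of KO above those of WT. Col4a2 changed at day 2 by 2.80 in KO spleens (6.95-fold, SE 0.304, adjusted p = 7.05e-07) and 2.04 in WT spleens (4.11-fold, SE 0.305, adjusted p = 3.19e-05). Without KO_D0 replicate 1, the higher of the KO day 0 libraries, the KO change was 3.59 at day 2 and 2.15 at day 5, against 1.36 at day 5 with it. The other type IV chains, Col4a3, Col4a4, Col4a5 and Col4a6, were among the 17 not tested.

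Col7a1 (chr9:108953586-108984875), the chain of the anchoring fibrils that fasten basement membranes to tissue, had 1.51 and 1.18 CPM at day 0, 1.60 and 1.28 at day 1, 7.60 and 12.5 at day 2 and 4.56 and 4.26 at day 5 in KO spleens. WT spleens held 1.87 and 1.26 CPM at day 0, 1.12 and 0.803 at day 1, 7.57 and 9.05 at day 2 and 4.84 and 3.22 at day 5. The day 2 libraries were above those of every other day in both genotypes. The day 2 change of Col7a1 was 2.90 in KO spleens (7.45-fold, SE 0.286, adjusted p = 1.94e-07) and 2.43 in WT spleens (5.38-fold, SE 0.277, adjusted p = 1.34e-06).

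All 4 tested chains of type VI were called higher at day 2 in both genotypes, from low counts, and Col6a5 and Col6a6 were not tested. Col6a1, Col6a2 and Col6a4 had fewer than 10 counts in every day 0 library. They could pass the filter only through treated libraries, so their rise was partly set by the filter. Col6a3 changed by 3.57 in KO and 3.24 in WT spleens (adjusted p = 3.72e-06 and 3.63e-05), and Col6a1 by 2.67 in KO and 2.67 in WT spleens (adjusted p = 0.000116 and 0.000582). Col6a2 and Col6a4, with means of 8.69 and 7.31 fragments a library, changed by 5.40 and 3.77 in KO and by 3.21 and 3.78 in WT spleens. At day 5, 3 of the 4 were called higher in each genotype, all but Col6a4.

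The FACIT chains, which decorate fibrils, split. Col16a1 rose at day 2 by 3.85 in KO and 3.70 in WT spleens (adjusted p = 8.51e-06 and 2.81e-05). Col12a1, a chain of dense connective tissue, rose by 2.77 in KO and 1.58 in WT spleens (adjusted p = 0.00129 and 0.0495). The WT call was near the threshold, with 0.147 and 0.373 CPM at day 2 against 0.0439 and 0.123 at day 0. WT day 1, at 0.146 and 0.207 CPM, overlapped WT day 2. Col22a1, found at tissue junctions, changed by 3.45 in KO spleens (adjusted p = 0.00883). In WT spleens, with no count at day 0, its day 2 mean was 5.5 times a floor of 3 counts per library.

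Col14a1 (chr15:55307750-55520803), a FACIT chain that binds fibrils, fell at day 1 and lay near its day 0 level at day 5. It had 4.46 and 3.995 CPM at day 0, 0.431 and 0.509 at day 1, 2.79 and 2.10 at day 2 and 4.66 and 4.54 at day 5 in KO spleens. WT libraries had 3.77 and 4.54 CPM at day 0, 0.534 and 0.233 at day 1, 1.20 and 2.11 at day 2 and 3.88 and 3.61 at day 5. The 4 day 1 libraries were below every other library, while the day 5 libraries lay just above those of day 0 in KO and overlapped them in WT spleens. The day 1 change of Col14a1 was -3.16 in KO spleens (SE 0.327, adjusted p = 7.02e-07) and -3.47 in WT spleens (SE 0.318, adjusted p = 2.01e-07), the WT value being -4.17 without WT_D1 replicate 1. At day 2 Col14a1 was still changed by -0.79 in KO and -1.30 in WT spleens (adjusted p = 0.0234 and 0.000959). The KO day 2 call was lost without KO_D0 replicate 1 (-0.70, adjusted p = 0.111), KO_D0 replicate 2 (-0.86, adjusted p = 0.0538) or KO_D2 replicate 2 (-0.59, adjusted p = 0.154). At day 5 the change was 0.12 in KO and -0.15 in WT spleens, neither of them called (adjusted p = 0.746 and 0.677).

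Col20a1 (chr2:180986535-181017714), another FACIT chain, had 1.03 and 1.51 CPM at day 0, 1.20 and 1.20 at day 1, 1.31 and 1.59 at day 2 and 1.43 and 1.25 at day 5 in KO spleens. WT samples had 1.97 and 1.76 CPM at day 0, 0.696 and 0.752 at day 1, 1.70 and 1.28 at day 2 and 1.85 and 1.02 at day 5. The WT day 1 libraries were below all others. Its day 1 change was -1.36 in WT spleens (SE 0.289, adjusted p = 0.00101), and the KO value of -0.07 was not called (adjusted p = 0.867). Col19a1 was called at day 1 in WT spleens (-3.20, adjusted p = 0.00357), and Col9a3, of cartilage, in no comparison with day 0.

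Col18a1 (chr10:77052178-77166548), the chain whose cleaved end is endostatin, had 0.289 and 0.251 CPM at day 0, 0.407 and 0.835 at day 1, 1.03 and 1.78 at day 2 and 3.13 and 2.04 at day 5 in KO spleens. WT spleens gave 0.373 and 0.477 CPM at day 0, 0.988 and 0.609 at day 1, 0.939 and 1.43 at day 2 and 2.10 and 3.22 at day 5. Its mean was higher at each later day in both genotypes, and the day 5 libraries were above all others. At day 1 the KO change of 1.20 was not called (adjusted p = 0.0568), but it was called with no filter on low counts (1.18, adjusted p = 0.0237), with only the 2 groups fitted (1.20, adjusted p = 0.0338), and without KO_D1 replicate 1, KO_D2 replicate 1 or KO_D2 replicate 2 (1.61, 1.21 and 1.19; adjusted p = 0.0267, 0.0442 and 0.0465). The day 5 change of Col18a1 was 3.24 in KO spleens (9.46-fold, SE 0.440, adjusted p = 1.07e-05) and 2.62 in WT spleens (6.16-fold, SE 0.397, adjusted p = 4.7e-05). At day 2 it was 2.36 in KO and 1.47 in WT spleens (adjusted p = 0.000342 and 0.00753), and the WT call was lost without WT_D2 replicate 2 (1.13, adjusted p = 0.109). Col15a1, the other chain of this class, was called in no comparison with day 0.

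Col23a1 (chr11:51289920-51583918), a chain that spans the cell membrane, had 2.05 and 2.41 CPM at day 0, 0.742 and 1.18 at day 1, 0.342 and 0.557 at day 2 and 0.938 and 1.43 at day 5 in KO spleens. WT libraries gave 1.80 and 1.52 CPM at day 0, 1.43 and 1.19 at day 1, 0.440 and 0.497 at day 2 and 0.963 and 0.610 at day 5. The 4 day 2 libraries were the lowest of all. The day 2 change of Col23a1 was -2.29 in KO spleens (SE 0.349, adjusted p = 2.98e-05) and -1.81 in WT spleens (SE 0.343, adjusted p = 0.000317). Its day 1 call in KO spleens (-1.20, adjusted p = 0.00445) was lost without KO_D1 replicate 1 (-0.91, adjusted p = 0.0716). Its day 5 changes were -0.92 in KO and -1.07 in WT spleens (adjusted p = 0.0222 and 0.0127). The KO call was lost without KO_D0 replicate 2 (-0.78, adjusted p = 0.126) or KO_D5 replicate 1 (-0.64, adjusted p = 0.216), and the WT call without WT_D0 replicate 1 (-0.94, adjusted p = 0.065) or WT_D5 replicate 2 (-0.78, adjusted p = 0.16). Col17a1, a membrane chain of hemidesmosomes, fell at day 1 in WT spleens (-1.47, adjusted p = 0.0245). Col8a2, a short network chain, changed at day 1 by -1.76 in KO and -1.83 in WT spleens (adjusted p = 0.021 and 0.011).

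**Figure D4:**
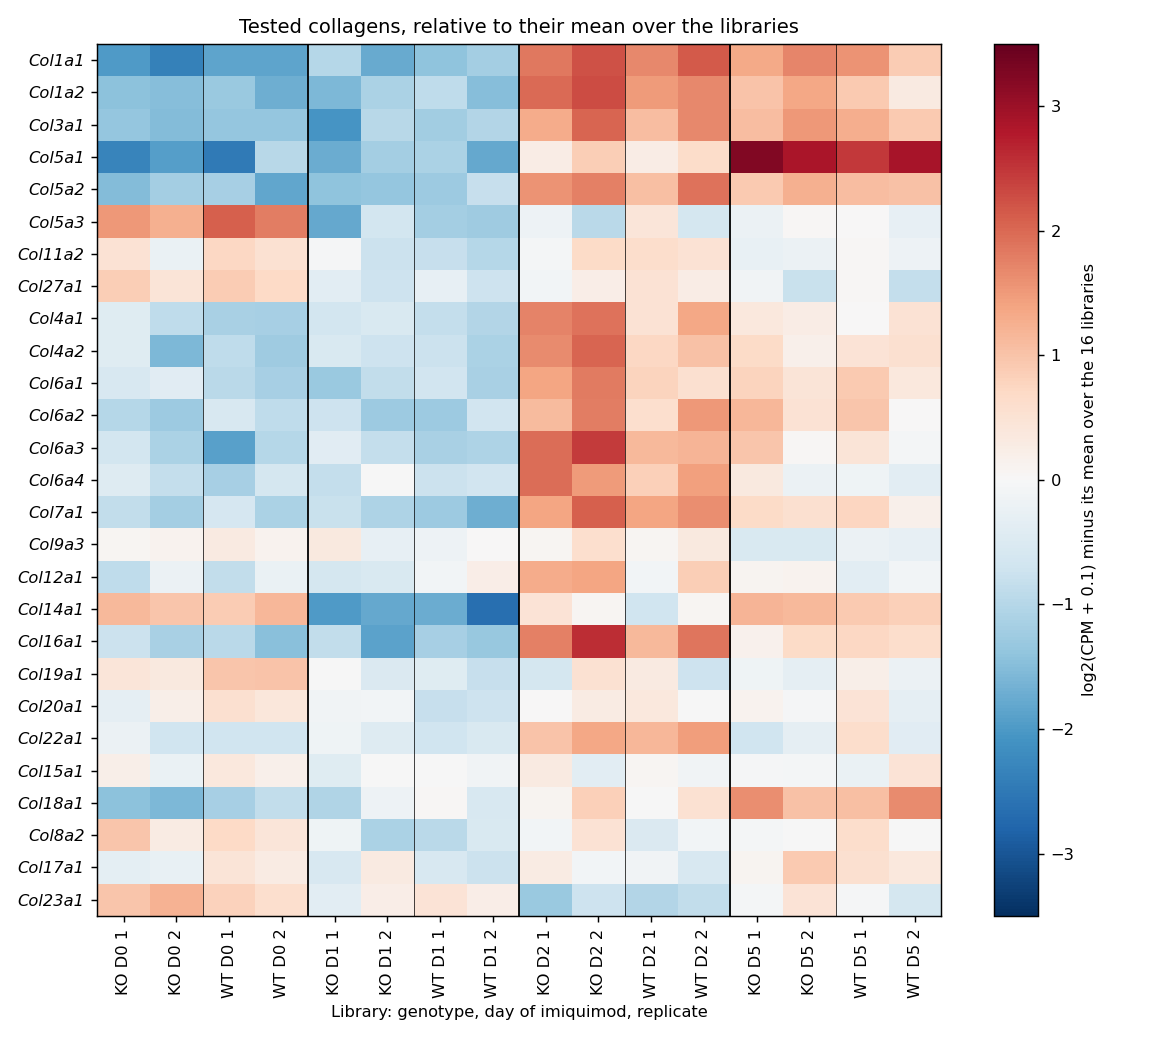
Log2(CPM + 0.1) of the 27 tested collagens in the 16 libraries, each relative to its own mean, with days in order and KO left of WT within a day. Red marks libraries above and blue libraries below the mean; the day 2 columns are red for types I, III, IV, VI and VII, and Col5a1 is reddest at day 5.

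Of the day 1 falls, Col14a1, Col27a1, Col5a3 and Col8a2 were called in both genotypes, which is 80% of the 5 KO calls and 50% of the 8 WT calls. The same overlap was not counted over all genes, so it is not shown to be particular to collagens. The WT day 1 libraries are those with the high scaling factors, and 18 of the 27 chains are in the highest of 5 classes of transcript GC content. The median log2 change of all genes in this class at day 1 was 0.18 in KO and -0.09 in WT spleens. With offsets corrected for GC content, chosen after seeing the data, 6 chains were called at day 1 in KO and 8 in WT spleens.

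Day 5 was set against day 2 after the values had been seen. In KO spleens 3 chains were called higher and 11 lower, where 17.8% of all genes were called higher and 16.9% lower (34.7% in all). In WT spleens 3 chains were called higher and 4 lower, where 15.8% of all genes were called higher and 13.8% lower (29.6% in all). Col5a1 was higher at day 5 than at day 2 by 2.52 in KO and 2.28 in WT spleens (adjusted p = 6.18e-05 and 0.000198). Col4a1 differed by -1.53 in KO and -0.72 in WT spleens (adjusted p = 5.19e-05 and 0.0256). Col4a2 differed by -1.44 in KO spleens (adjusted p = 0.000621), and its WT value of -0.37 was not called (adjusted p = 0.368). Col7a1 differed by -1.19 and -1.05 (adjusted p = 0.00148 and 0.00496). Col1a2 differed by -0.99 in KO and -0.97 in WT spleens (adjusted p = 0.00445 and 0.00725), while Col1a1 and Col3a1 were not called. Of the 27 chains, 14 had their highest mean at day 2 in both genotypes, 3 at day 5 and 5 at day 0.

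Single libraries decided many of these calls. Without WT_D2 replicate 2 or without WT_D5 replicate 2, 3 WT calls were made between days 5 and 2, and without KO_D5 replicate 1 or without KO_D5 replicate 2, 8 KO calls. The WT value of Col4a1 was -0.22, adjusted p = 0.591 without WT_D2 replicate 2 and -0.49, adjusted p = 0.252 without WT_D5 replicate 1. The WT value of Col1a2 was -0.86, adjusted p = 0.0679 without WT_D2 replicate 2 and -0.70, adjusted p = 0.112 without WT_D5 replicate 2. That of Col7a1 was -0.90, adjusted p = 0.0574 and -0.78, adjusted p = 0.0851 without the same libraries. The KO value of Col1a2 was -0.82, adjusted p = 0.0696 without KO_D5 replicate 1.

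PKR KO and WT spleens were compared on each day, averaged over days, and in their changes over day 0. With the filter on low counts, no collagen was called by edgeR or by DESeq2 in these 8 comparisons. Of all genes, 0.016% were called at day 0 (0.0106% higher, 0.00532% lower), 0.176% at day 1 (0.128% and 0.0479%), 0% at day 2, 0.00532% at day 5 and 0.0266% in the average (0.0106% and 0.016%). For the difference in the day 1 change 0.16% were called (0.128% and 0.0319%), and 0% for days 2 and 5. At an unadjusted p under 0.05 there were 0 of 27 chains at day 0, where 5.88% of all genes were, 1 at day 1 (9.32% of all genes), 5 at day 2 (4.61%), 1 at day 5 (6.54%) and 3 in the average (5.56%). For the changes at days 1, 2 and 5 there were 3, 0 and 1 chains, where 13.2%, 4% and 7.86% of all genes were. The median KO minus WT log2 difference of the tested chains was -0.12, 0.16, 0.31 and 0.05 at days 0, 1, 2 and 5.

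The type IV pair was higher in both KO libraries than in both WT libraries at day 2, 1 of those KO libraries being the one with Eif2ak2 above both WT libraries, and was not called. The KO minus WT log2 difference was 0.83 (95% interval 0.35 to 1.30, adjusted p = 0.579) for Col4a1 and 0.98 (95% interval 0.41 to 1.56, adjusted p = 0.579) for Col4a2. Without the library labelled KO_D2 replicate 1 the differences were 0.90 for Col4a1 and 1.17 for Col4a2. With 1 library left out at a time, the Col4a1 difference lay between 0.47 without WT_D2 replicate 1 and 1.32 without WT_D2 replicate 2. The Col4a2 difference was lowest, at 0.78, without KO_D2 replicate 2. Averaged over days the KO minus WT difference was 0.43 (95% interval 0.18 to 0.69, adjusted p = 0.595) for Col4a1. The difference in the day 1 change was 1.28 (95% interval 0.41 to 2.16, adjusted p = 0.202) for Col20a1 and 1.00 (95% interval 0.19 to 1.82, adjusted p = 0.28) for Col11a2. With no filter on low counts, Col4a1 and Col4a2 were called at day 2 (0.81 and 0.96, adjusted p = 0.0142 and 0.0115), Col4a1 in the average (adjusted p = 0.0238) and Col11a2 in the day 1 change (adjusted p = 0.0357). A p that misses the threshold does not show that KO and WT spleens were alike.

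Enzymes that fold and modify collagen were followed as a list of 19 tested genes, with 8 higher and 1 lower in KO spleens and 8 higher and 1 lower in WT spleens at day 2. Of all genes, 26.2% were called higher and 23% lower in KO spleens at day 2, and 23.9% and 21.3% in WT spleens. These shares stand beside the day 2 counts of every list that follows. P4hb, a subunit of prolyl 4-hydroxylase that also serves other secreted proteins, had 281 ± 52 CPM at day 2 against 84.8 ± 5.3 CPM at day 0 in KO spleens (log2 change 1.73, adjusted p = 7.63e-09), and 291 ± 4.1 against 87.8 ± 7.2 CPM in WT spleens (1.73, adjusted p = 9.59e-09; SD, n = 2 each). Serpinh1, the chaperone specific to collagen, had 2.34 ± 0.23 against 0.549 ± 0.42 CPM in KO (2.05, adjusted p = 0.000694) and 1.29 ± 0.29 against 0.373 ± 0.093 CPM in WT spleens (1.82, adjusted p = 0.00338). P4ha1, the catalytic partner of P4hb, changed at day 1 by -1.26 in KO and -0.87 in WT spleens (adjusted p = 5.97e-06 and 0.00022).

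Of the 8 tested genes for processing and crosslinking, 5 were called higher and 2 lower in KO spleens, and 5 higher and 2 lower in WT spleens at day 2. Bmp1, the protease that removes the C-terminal propeptide, had 0.228 ± 0.14 CPM at day 0, 1.83 ± 0.49 at day 2 and 4.33 ± 0.22 at day 5 in KO spleens, and 0.391 ± 0.057, 1.83 ± 0.31 and 2.77 ± 0.15 CPM in WT spleens. Its day 5 change was 4.18 in KO and 2.80 in WT spleens (adjusted p = 2.32e-08 and 1.71e-06). Adamts2, which removes the N-terminal propeptide, changed at day 2 by 4.67 in KO and 4.32 in WT spleens, with a mean of 5.5 fragments a library. Pcolce2, an enhancer of propeptide cleavage, changed by -2.76 in KO and -2.40 in WT spleens.

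Of 13 tested fibril and matrix partners, 9 were called higher and 1 lower in KO spleens, and 8 higher and 0 lower in WT spleens at day 2, among them Tnxb, which binds fibrils (3.36 in KO, 2.77 in WT), and Fbn1 of the microfibrils (3.10 in KO, 2.19 in WT). Of 14 basement membrane partners, 10 were called higher and 1 lower in KO spleens, and 7 higher and 0 lower in WT spleens. Lama2, a laminin chain, had 3.73 ± 0.085 against 0.0664 ± 0.023 CPM at day 0 in KO (5.73, adjusted p = 5.62e-08) and 1.54 ± 0.60 against 0.0450 ± 0.0016 CPM in WT spleens (5.03, adjusted p = 8.14e-07).

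Of 10 tested collagen receptors, 1 was called higher and 2 lower in KO spleens, and 2 higher and 4 lower in WT spleens at day 2. Ddr2, a fibroblast receptor for fibrillar collagen, changed by 3.42 in KO and 3.02 in WT spleens, and Ddr1, its epithelial relative, by -1.73 and -2.52. Of 12 degradation genes, 3 were called higher and 2 lower in KO spleens, and 2 higher and 4 lower in WT spleens at day 2. These counts are near the share of all genes called, 49.3% in KO and 45.2% in WT spleens. Mmp14, a membrane collagenase, was already higher at day 1, by 4.25 in KO and 3.87 in WT spleens (adjusted p = 2.56e-07 and 4.26e-07). Of 18 genes of TGF-beta signalling, a known inducer of collagen genes in fibroblasts, 3 were called higher and 8 lower in KO spleens, and 2 higher and 7 lower in WT spleens at day 2, with the inhibitor Smad7 at -2.01 in KO and -1.76 in WT spleens.

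Markers of stromal cells were called in both directions at day 1, when 41.6% of all genes were called in KO and 44.6% in WT spleens. Of 18 tested markers of fibroblastic reticular and perivascular cells, 4 were called higher and 5 lower in KO spleens, and 5 higher and 3 lower in WT spleens at day 1. At day 2, 12 were called higher and 3 lower in KO spleens, and 8 higher and 3 lower in WT spleens. Of all genes, 26.2% were then called higher and 23% lower in KO spleens, and 23.9% and 21.3% in WT spleens. Myh11 of smooth muscle changed by 5.73 in KO and 4.09 in WT spleens, and Il33, of reticular fibroblasts, by 3.85 and 4.92. The list's summed level was lower, at 119 and 113 CPM in KO and 91.1 and 109 CPM in WT spleens at day 2, against 409 and 461 CPM in KO and 399 and 404 CPM in WT spleens at day 0. Vcam1, also on red pulp macrophages, changed by -2.79 in KO and -2.89 in WT spleens within the list. Thy1, also a T cell gene, and Cr2, also a B cell gene, belong to the list too. Its sum thus does not follow stromal cells alone, and the part of lymphocytes and macrophages in it was not tested. Each of the 25 listed genes had counts.

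Of 16 tested endothelial markers, 5 were called higher and 1 lower in KO spleens, and 5 higher and 4 lower in WT spleens at day 1. The counts were 12 higher and 1 lower in KO spleens and 5 higher and 2 lower in WT spleens at day 2, and 12 higher and 0 lower in KO spleens and 10 higher and 0 lower in WT spleens at day 5. The share of all genes called was 41.6%, 49.3% and 44.5% in KO spleens at days 1, 2 and 5. In WT spleens it was 44.6%, 45.2% and 39.4%. Their sum was 118 and 109 CPM in KO and 120 and 120 CPM in WT spleens at day 0, 109 and 104 CPM in KO and 99.9 and 98.1 CPM in WT spleens at day 2 and 161 and 161 CPM in KO and 164 and 153 CPM in WT spleens at day 5. Of 4 mesothelial and capsule markers, 2 were called higher and 1 lower in KO spleens, and 2 higher and 0 lower in WT spleens at day 2, with a sum of 7.03 and 5.86 CPM in KO and 6.19 and 5.34 CPM in WT spleens, against 1.47 and 1.58 CPM in KO and 1.51 and 1.34 CPM in WT spleens at day 0. The part of these cells in the collagen values was not tested.

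Blood cell markers were counted too. Of all genes, 49.3% were called in KO and 45.2% in WT spleens at day 2, and 44.5% and 39.4% at day 5. At day 2, of 14 plasma cell markers 13 were called higher and 0 lower in KO spleens, and 13 higher and 0 lower in WT spleens, with a sum of 26947 and 15917 CPM in KO and 25753 and 18862 CPM in WT spleens, against 2007 and 2004 CPM in KO and 2679 and 2229 CPM in WT spleens at day 0. Of 16 T cell markers 0 were called higher and 16 lower in KO spleens, and 0 higher and 16 lower in WT spleens at day 2, with a sum of 96.8 and 201 CPM in KO and 160 and 174 CPM in WT spleens, against 735 and 741 CPM in KO and 811 and 716 CPM in WT spleens at day 0. Of 12 B cell markers 0 were called higher and 10 lower in KO spleens, and 0 higher and 7 lower in WT spleens, and of 13 red pulp macrophage markers 1 higher and 8 lower in KO spleens and 0 higher and 9 lower in WT spleens. Of 15 neutrophil and monocyte markers 1 was called higher and 5 lower in KO spleens, and 1 higher and 8 lower in WT spleens. At day 5, when Col5a1 and Col18a1 were highest, of 18 erythroid markers 18 were called higher and 0 lower in KO spleens, and 18 higher and 0 lower in WT spleens, with a sum of 24415 and 17912 CPM in KO and 12646 and 9077 CPM in WT spleens, against 1109 and 1755 CPM in KO and 567 and 1376 CPM in WT spleens at day 0. Of 14 megakaryocyte and platelet markers 7 were then called higher and 0 lower in KO spleens, and 5 higher and 0 lower in WT spleens. The 13 red pulp macrophage markers had 7 higher and 2 lower in KO, and 5 higher and 2 lower in WT spleens, at day 5. The part of these blood cells in the collagen values was not tested.

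Markers of adipose tissue and pancreas, which lie around the spleen, had their highest group means at day 5, when Col5a1 and Col18a1 were highest. Adipocyte markers, with Lep at 0 in every library, summed to 7.23 and 7.71 CPM at day 0, 4.12 and 5.23 at day 1, 3.36 and 3.71 at day 2 and 18.6 and 21.8 at day 5 in KO spleens. In WT spleens their sum was 7.28 and 6.70 CPM at day 0, 5.04 and 2.94 at day 1, 4.34 and 3.91 at day 2 and 21.5 and 17.7 at day 5. Of 10 listed adipocyte genes 2 were tested, and both were called higher at day 5 in each genotype. The day 5 sums were above those of Col1a1, Col1a2 and Col3a1 at day 5. Of all genes, 24.2% were called higher in KO and 22.4% in WT spleens at day 5. Exocrine pancreas markers, with Prss1 at 0 in every library, summed to 2.21 and 1.66 CPM at day 0, 1.70 and 12.8 at day 1, 2.96 and 1.25 at day 2 and 14.8 and 7.92 at day 5 in KO spleens, where the day 1 libraries stood far apart. Their WT sum was 1.87 and 2.43 CPM at day 0, 1.54 and 3.64 at day 1, 1.82 and 1.93 at day 2 and 9.05 and 11.1 at day 5. Of 19 listed pancreas genes 6 were tested, and 2 of these were called higher at day 5 in each genotype. The part of these tissues in the collagen values was not tested.

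**Figure D5:**
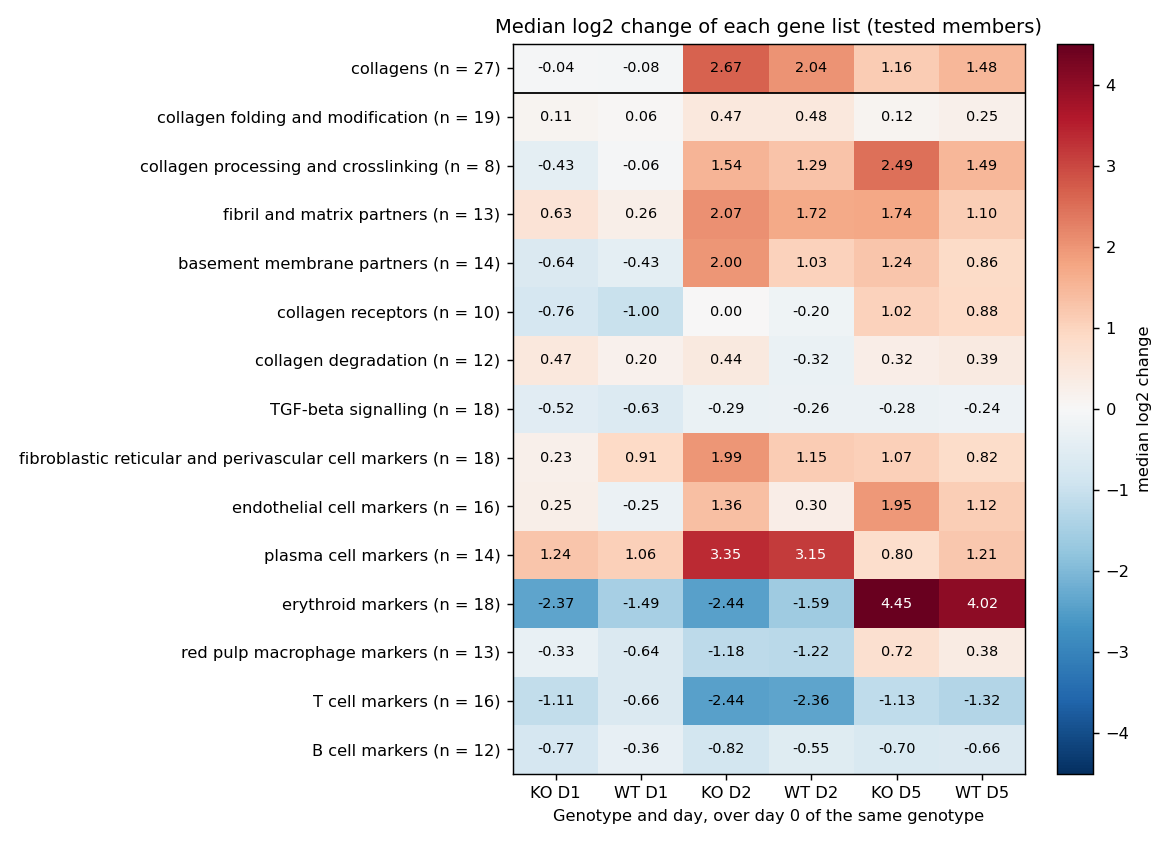
Median log2 change over day 0 of the same genotype for the tested collagens and 14 gene lists (n is the number of tested members), with KO left of WT at days 1, 2 and 5. Collagens stand at 2.67 in KO and 2.04 in WT spleens at day 2, plasma cell markers at 3.35 and 3.15, and T cell markers at -2.44 and -2.36.

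The summed CPM of Col1a1, Col1a2 and Col3a1 was set beside other genes over the 16 libraries, which share their treatment days, on a log2(CPM + 0.5) scale and as a description. Among the other collagens the Pearson r was 0.99 for Col5a2, 0.95 for Col7a1, 0.93 for Col6a2 and 0.93 for Col4a2. It was 0.77 for Col18a1 and 0.75 for Col5a1, whose highest means came at day 5, -0.37 for Col5a3 and -0.75 for Col23a1. Of 12548 other genes with a mean of 1 FPKM or more, the 10 most alike were Ighv1-74 (0.96), Tent5c (0.95), Cpeb3 (0.95), Ap4m1 (0.95), Ern1 (0.95), Brd8 (0.94), Hjurp (0.94), Ypel2 (0.94), Cep250 (0.94) and Gm37416 (0.94). Ighv1-74 is an immunoglobulin variable segment, and Ern1 is a sensor of the unfolded protein response. No collagen chain reached a mean of 1 FPKM, and matrix and stromal genes below it, such as Lama2, were not ranked. The ranks therefore do not describe those lower genes. Of 13 matrix and stromal genes among those ranked, Sparc, a collagen-binding matrix protein, ranked 17 (0.93), and Agrn of the basement membrane was next at rank 667 (0.77). Fn1, the gene of fibronectin, was at 0.07, and 7 of the 13 had a negative r, among them Vcam1 (-0.16), Pecam1 of the endothelium (-0.51), Thy1 (-0.69) and Cr2 (-0.90). Thy1 is also a T cell gene and Cr2 also a B cell gene, and the part of lymphocytes in these values was not tested.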

How the data were processed

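Ribosomal-RNA-depleted libraries of 16 spleen samples in 8 groups were used, 2 per group. Per the file headers, the deposited tables give for each transcript a fragment count, a signal scaled to the library's total fragments (FPM) and FPKM, all made by the authors. The submitters' processing notes list HISAT2, TopHat, Trimmomatic, bcl2fastq 2.17.1.14 and the mm10 build, with no roles; which program counted, and on which annotation, is not given in the sources used here. Counts were taken for 1 transcript per symbol, so fragments that fall only on other isoforms are left out. Library totals were the count divided by FPM. Counts summed over all transcripts were 1.48 to 2.12 times these totals, so a fragment could count for more than 1 transcript. This ratio was highest in the WT day 1 libraries, at 2.08 and 2.12.

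Counts were tested with edgeR 4.0.16 (robust quasi-likelihood F test, TMM, low-count filter, 18789 genes, 8 groups in 1 fit) in R 4.3.3, with Benjamini-Hochberg adjustment over all genes and calls at an adjusted p under 0.05. The p-values of single genes come from this edgeR fit unless an unfiltered fit, a fit of only the groups compared or a left-out library is named, which used the same edgeR test, and the same test was tried on simulated data. DESeq2 1.42.0 and limma 3.58.1 on log2(FPKM + 0.1) were among the alternatives. The members and the 19 gene lists were chosen with earlier results of these data known. Per-library values are given for members called in any of the 14 comparisons of the design with a mean count of 30 or more, and from each list up to 4 members with the largest called change per comparison could be named. A further 2 comparisons, day 5 with day 2, and 3 alternatives were added after seeing the data. Replicates differed by more than sampling noise, with a chi-square per gene of 13.1 to 75.9. Intervals and floors cover counting error or library spread only. Kept transcripts were protein-coding for 43 of 45 symbols; Col4a1 and Col16a1 were kept as transcripts annotated for nonsense-mediated decay. Of the 27 tested collagens, Col9a3 overlaps a gene on the opposite strand (Tcfl5, 7.68%).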

Additional observations from a re-analysis of the deposited data

How the results depend on the processing

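The collagen counts of the 6 comparisons with day 0 stayed within 1.5 times of the reported counts, except at day 1 in KO spleens, where 8 were called with no filter on low counts, against 5, the others being Col11a2 and Col4a5 lower and Col18a1 higher. With no filter there were 2 calls for KO against WT at day 2, 1 in the average over days and 1 in the difference of the day 1 changes, against 0 for each, and 11 for day 5 against day 2 in WT spleens, against 7. The cause was not tested. The summed type I and III level at day 1 over day 0 in WT spleens was 1.586 with FPKM as deposited, against 1.331 in CPM. Of 74 single calls followed, Col4a3bp included, 52 passed at every setting and none changed direction.

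Leaving out 1 library at a time, with the same genes tested, gave 5 to 6 calls at day 1, 17 to 19 at day 2 and 11 to 16 at day 5 in KO spleens. At day 1, Col4a2 was called higher in KO spleens without KO_D0 replicate 1 (1.00, adjusted p = 0.0364) and Col1a1 without KO_D1 replicate 2 (1.51, adjusted p = 0.0365). In WT spleens it gave 6 to 9, 16 to 20 and 14 to 18. Day 5 against day 2 gave 8 to 14 in KO and 3 to 8 in WT spleens, and KO against WT gave 0 in every comparison. A lone library left in a group is taken to vary like the other groups. The KO minus WT difference of Eif2ak2 at day 2 lay between -0.78 without KO_D2 replicate 1 and 0.34 without KO_D2 replicate 2, and was 0.09 without WT_D2 replicate 2, against -0.12 in all libraries.

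With a replicate block, 5, 19 and 16 collagens were called in KO and 8, 19 and 18 in WT spleens at days 1, 2 and 5, the counts without it. Correlations between same-numbered libraries of 28 pairs of groups ran from -0.161 to 0.205 with 3 over 0.1, so the numbers are not shown to pair samples. The tested chains with a mean under 10 fragments a library were Col6a2, Col6a4, Col12a1, Col15a1, Col19a1 and Col22a1.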
